A study of Homo sapiens with 14 samples.

Results

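A group of 7 noncoding genes known from lymphoid cancer was examined: MIR155HG, MIR17HG, MIR22HG, DLEU2, DLEU1, MALAT1 and NEAT1. They are 7 of 62700 genes annotated by GENCODE release 44, and they were chosen by name. Their windows were the gene body with 20 kb on each side, and peaks of the accessible chromatin lists that overlapped these windows by at least 1 bp were counted. The windows held 62 of 72802 MM.1S peaks and 85 of 79969 RPMI8226 peaks. Both MM.1S and RPMI8226 are established human multiple myeloma (MM) cell lines. Chromatin accessibility was measured by Omni-ATAC, in which a transposase cuts and tags open chromatin. MM cells were kept in monoculture (MONO), or in coculture with the human bone marrow stromal line HS5, from which they were taken as the upper transwell fraction without contact (TSW) or as the lower chamber fraction with contact (CO). MM.1S had 3 MONO, 3 TSW and 3 CO libraries, and RPMI8226 had 1 MONO, 2 TSW and 2 CO libraries.

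A reference peak is a region that the authors called in at least 3 libraries of a line. Each peak carries 1 whole number, read here as support, the number of libraries in which the peak was called. It reaches 9 in MM.1S and 5 in RPMI8226. Culture conditions are pooled in each list and reads are not given, so the files give no depth and no change between MONO, TSW and CO could be measured. Each line has 1 list, so the differences between lines below have no replicate check and no test. A gene without a peak was called in fewer than 3 libraries, which is not evidence of closed chromatin. All 10 plasma cell markers had such a peak near a start site (a promoter peak) in both lines. So did 4 of 5 genes of the B cell program, with MS4A1 the exception in both. The latter is near the shares of all protein-coding genes, 76.8% in MM.1S and 71.8% in RPMI8226. A promoter peak was found for 6 of 10 stromal markers in MM.1S and for 4 in RPMI8226. The canonical start itself was covered in MM.1S and RPMI8226 for 10 and 9 plasma cell markers. It was covered for 3 and 2 genes of the B cell program and for 3 and 0 stromal markers. Among all protein-coding genes it was covered for 62.1% and 53.9%. The study noted a small share of HS5 cells among sorted cells of the lower chamber. By the list rule each peak has a support of at least 3, so every RPMI8226 peak exceeds what the 2 CO libraries could give. This holds for the windows (85 of 85) as for the whole list. In MM.1S, 58 of 62 window peaks had more support than its 3 CO libraries could give. The other 4 MM.1S peaks had a support of 3, as did 6290 of 72802 peaks in the whole MM.1S list. The part of HS5 cells in any of the peaks was not tested.

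A microRNA host gene is transcribed as a long noncoding RNA from which a hairpin is cut out by DROSHA with DGCR8 and then trimmed by DICER1 to the mature microRNA. The mature strand is loaded onto an Argonaute protein, and bases 2 to 8 at its 5′ end, the seed, pair with target mRNAs. MIR155HG, first described as BIC, carries miR-155, a microRNA of activated lymphocytes and B cell lymphoma. MIR17HG carries the miR-17-92 cluster, a target of MYC that is amplified in some B cell lymphomas. MIR22HG carries miR-22. DLEU2 carries miR-15a and miR-16-1, which lie in the 13q14 region deleted in chronic lymphocytic leukaemia and in MM, and DLEU1 is its long divergent neighbour. MALAT1 and NEAT1 are abundant nuclear RNAs that lie next to each other, of which MALAT1 resides in nuclear speckles and NEAT1 builds paraspeckles.

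The mature sequences below are shown because they are the products of the host genes whose start sites and hairpins are compared. They were taken from RefSeq (GRCh38.p14), which held 11 of the 12 hairpins annotated in the windows, and capitals mark the seed. Among them miR-17-5p and miR-20a-5p share the seed AAAGUGC, miR-19a-3p and miR-19b-3p share GUGCAAA, and miR-15a-5p and miR-16-5p share AGCAGCA.
miR-155-5p: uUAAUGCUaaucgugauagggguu
miR-17-5p: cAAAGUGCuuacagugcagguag
miR-20a-5p: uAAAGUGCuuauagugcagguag
miR-18a-5p: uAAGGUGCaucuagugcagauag
miR-19a-3p: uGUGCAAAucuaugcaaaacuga
miR-19b-3p: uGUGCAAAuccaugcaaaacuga
miR-92a-3p: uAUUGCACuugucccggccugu
miR-22-3p: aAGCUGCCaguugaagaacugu
miR-15a-5p: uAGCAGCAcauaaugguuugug
miR-16-5p: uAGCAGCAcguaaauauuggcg

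Promoter windows are shown for MIR155HG, 1 of 2 genes whose canonical start was covered in MM.1S only, and for 2 host genes covered in both lines. They run from 250 bases before to 50 bases after the RefSeq start and are written on the strand of the gene. Capitals mark motif matches found on either strand. The MIR155HG window lies at chr21:25561895-25562194 on the plus strand, and its capitals mark an ISRE match followed by an AP-1 match. Its RefSeq start differs from the canonical start, and the whole window lies downstream of the canonical start. The MIR17HG window lies at chr13:91347437-91347736 on the plus strand, and its capitals mark 6 GC boxes, of which 1 pair overlaps. The DLEU2 window lies at chr13:50125492-50125791 on the minus strand, and its capitals mark GC boxes, an E-box, a CTCF match and a pair of overlapping NF-kB matches.
MIR155HG promoter window: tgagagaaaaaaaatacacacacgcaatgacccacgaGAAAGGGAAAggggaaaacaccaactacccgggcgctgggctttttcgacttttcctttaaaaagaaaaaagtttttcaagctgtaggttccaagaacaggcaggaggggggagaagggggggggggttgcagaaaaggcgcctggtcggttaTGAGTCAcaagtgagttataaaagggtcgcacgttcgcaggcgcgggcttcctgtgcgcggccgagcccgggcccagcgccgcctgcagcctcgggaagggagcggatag
MIR17HG promoter window: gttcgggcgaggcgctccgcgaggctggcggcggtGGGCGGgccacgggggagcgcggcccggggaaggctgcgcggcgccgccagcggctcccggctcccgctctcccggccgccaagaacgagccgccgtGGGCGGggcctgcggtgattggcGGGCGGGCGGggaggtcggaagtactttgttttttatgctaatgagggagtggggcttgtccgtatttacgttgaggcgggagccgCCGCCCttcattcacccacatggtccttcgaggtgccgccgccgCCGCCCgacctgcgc
DLEU2 promoter window: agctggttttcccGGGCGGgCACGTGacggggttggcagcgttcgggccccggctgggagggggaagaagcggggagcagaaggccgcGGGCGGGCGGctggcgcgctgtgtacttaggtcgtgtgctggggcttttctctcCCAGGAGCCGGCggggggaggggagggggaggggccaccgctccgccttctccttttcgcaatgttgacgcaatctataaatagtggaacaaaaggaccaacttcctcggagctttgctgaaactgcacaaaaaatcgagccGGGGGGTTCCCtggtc

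The following stretches of hg38 come from peaks that the results turn on. The first is the part around the miR-155 hairpin that both lines had under a peak, chr21:25573903-25574122 on the plus strand, with the mature strands in capitals. The second is the central 300 bases of the MM.1S peak over the NEAT1 start, chr11:65422874-65423173 on the plus strand, with a GC box in capitals.
miR-155 hairpin stretch: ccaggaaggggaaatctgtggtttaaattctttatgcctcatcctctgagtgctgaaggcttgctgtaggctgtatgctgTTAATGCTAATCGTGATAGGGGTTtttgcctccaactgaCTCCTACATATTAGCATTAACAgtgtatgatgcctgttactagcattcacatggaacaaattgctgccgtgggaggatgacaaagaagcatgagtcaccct
NEAT1 start stretch: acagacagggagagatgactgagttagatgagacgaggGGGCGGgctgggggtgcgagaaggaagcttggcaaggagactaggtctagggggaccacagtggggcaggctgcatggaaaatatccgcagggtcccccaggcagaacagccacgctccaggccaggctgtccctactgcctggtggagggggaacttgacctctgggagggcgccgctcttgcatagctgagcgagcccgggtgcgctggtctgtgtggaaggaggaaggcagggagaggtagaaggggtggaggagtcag

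The canonical start sites of all 7 genes lay under a reference peak in MM.1S, and those of MIR155HG and NEAT1 lacked one in RPMI8226. Counting peaks within 2500 bp of any start site of the gene itself, 7 of 7 genes had a peak in MM.1S and 6 of 7 in RPMI8226. Among 18866 lncRNA genes these shares were 38.9% and 37.2%. The 7 genes have between 2 and 40 annotated start sites, whereas the median lncRNA gene has 1, which gives them more places where a peak can count. At the canonical start site alone, 7 genes were covered in MM.1S and 5 in RPMI8226, against 20.6% and 17.2% of lncRNA genes. Of 3887 lncRNA genes with an MM.1S peak over the canonical start, 996 (25.6%) had no RPMI8226 peak there, so 2 of 7 (28.6%) is close to the share among lncRNA genes.

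**Figure D1:**
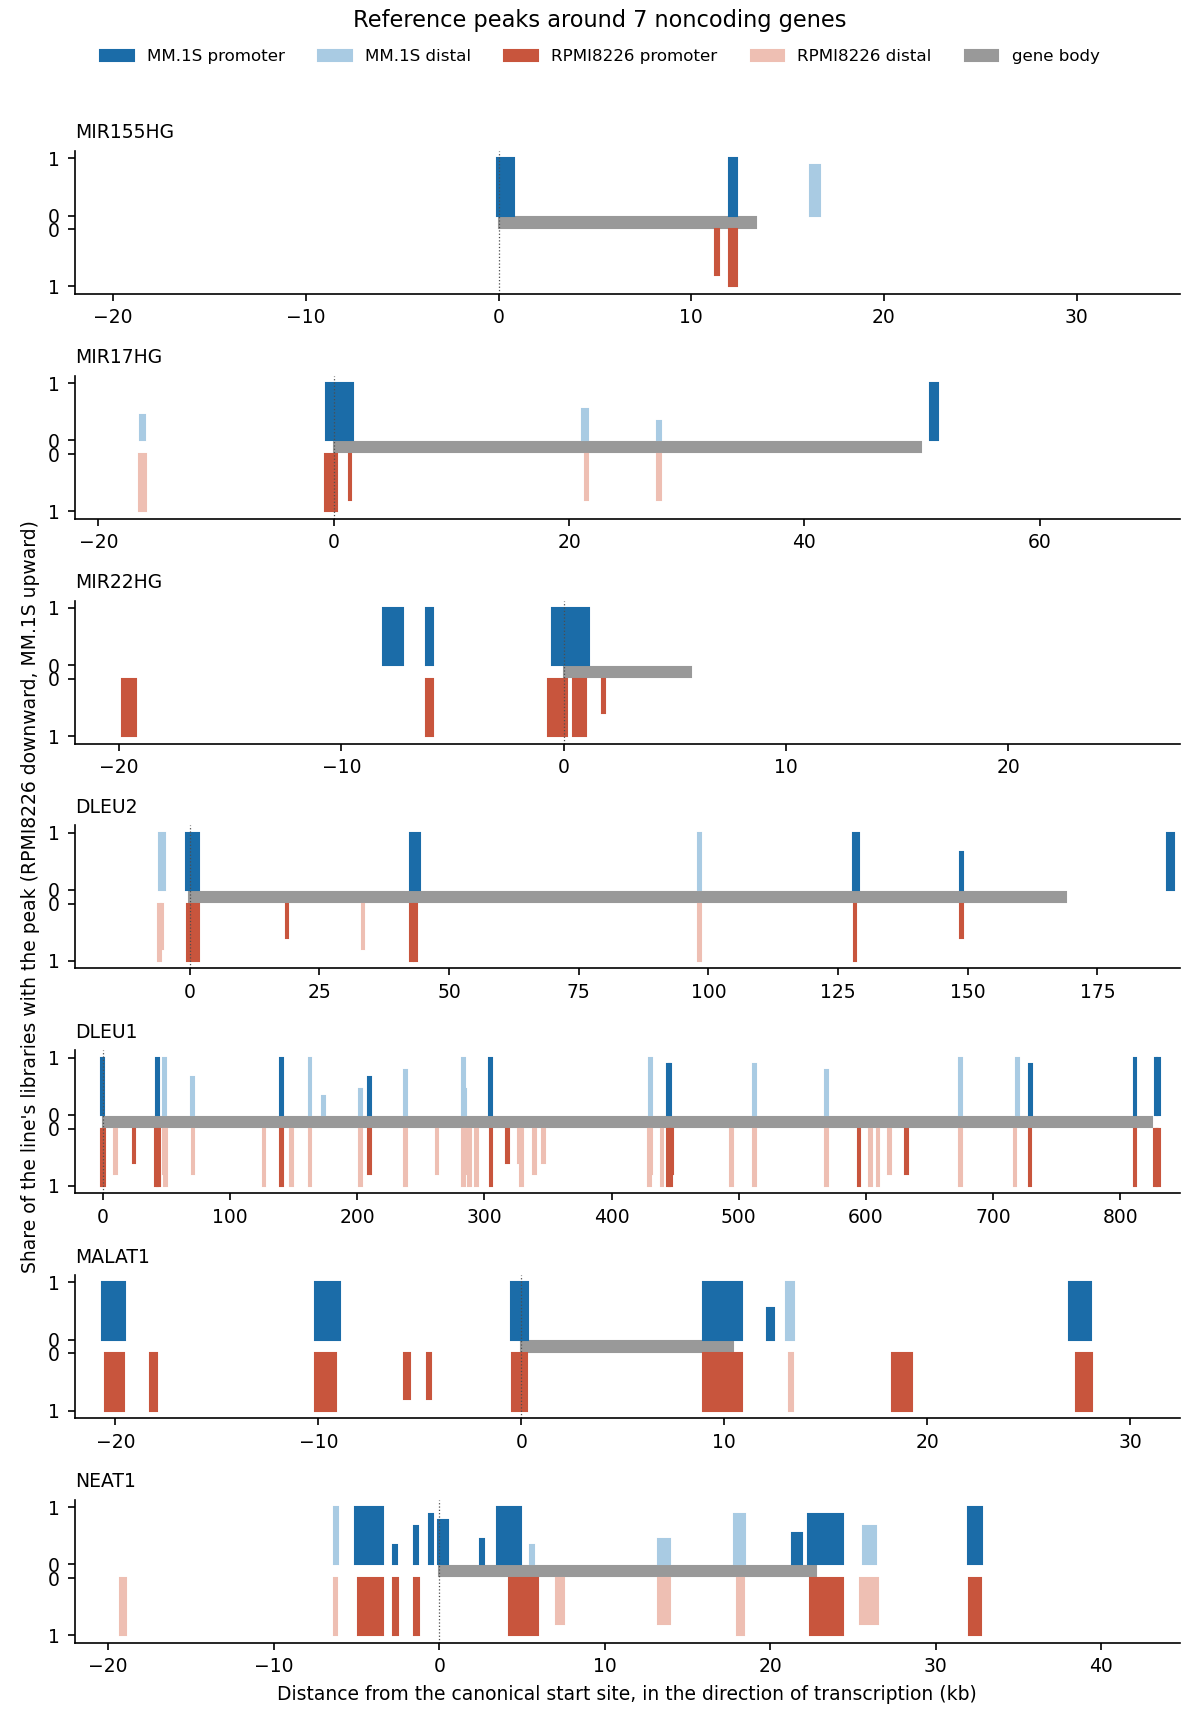
Reference peaks in the window of each gene, by distance in kb from the canonical start site in the direction of transcription, with bar height as the share of the line's libraries that had the peak (MM.1S upward, RPMI8226 downward). Dark bars are promoter peaks, light bars are distal peaks, grey is the gene body, and the narrowest peaks are drawn wider than to scale; MIR155HG and NEAT1 have a bar at 0 only in MM.1S.

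MIR155HG (ENSG00000234883.7, chr21:25561810-25575168, plus strand) differed between the lines at its start. In MM.1S a peak of 883 bp, chr21:25561714-25562596, covered the start and was called in 9 of 9 libraries. It contained all 300 bases of the RefSeq promoter window printed above. That window begins at chr21:25561895, after the canonical start at chr21:25561810, so the matches in it lie downstream of the start compared here. In RPMI8226 no peak lay in the 109 kb between chr21:25464483 and chr21:25573022, which include the start, and the nearest peak was 11212 bp downstream with a support of 4. The promoter window held 1 AP-1 match (TGACTCA or TGAGTCA, the site of JUN and FOS factors), which began at base -60 from the RefSeq start, and 1 ISRE match (the element of interferon regulatory factors). AP-1 matches were found in 4.95% of 35116 RefSeq promoter windows and ISRE matches in 3.57%. A match describes the letters of the window and not binding.

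The miR-155 hairpin itself was under a peak in every library of both lines. The MM.1S peak, chr21:25573784-25574177, had 394 bp and a support of 9, and the RPMI8226 peak, chr21:25573796-25574182, had 387 bp and a support of 5. They had 382 bp in common, and their edges differed by 12 and 5 bp. The peak covers an exon of MIR155HG. It was classed as a promoter peak because the hairpin is annotated as a gene with a start of its own, whereas the nearest start of MIR155HG lay 11748 bp away in RPMI8226. RPMI8226 had 1 further peak, of 249 bp, before the hairpin, and MM.1S had 1 further peak, of 516 bp and a support of 8, past the 3′ end.

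Of 12 hairpins in the 7 genes, 10 overlapped no peak in either line. In MM.1S 2 were under a peak, miR-155 and MIR612, and in RPMI8226 1 was, miR-155, against 9.15% and 7.08% of 1879 annotated hairpins. MIR612 lies near the 3′ end of NEAT1, and its MM.1S peak, chr11:65444131-65444740, had a support of 5. The 6 hairpins of the miR-17-92 cluster lay 1238 to 1947 bp from the nearest peak in MM.1S and 1401 to 2110 bp in RPMI8226. The miR-22 hairpin lay 2043 and 1327 bp from one. MIR3613, a hairpin in DLEU2, lay 76 bp from a peak in MM.1S and 523 bp in RPMI8226. The hairpins of miR-15a and miR-16-1 were the farthest, between 21531 and 21736 bp, in a stretch without peaks of 53.7 kb in MM.1S and 54.4 kb in RPMI8226. The hairpins of 1 cluster lie in the same transcript and share their nearest peak, so they are not separate observations.

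MIR17HG (chr13:91347686-91397592, plus strand) had the same layout in both lines. The start was covered by peaks of 1044 bp in MM.1S and 980 bp in RPMI8226, called in every library, and 953 bp were common. A second peak between the start and the hairpins had 1147 bp and a support of 9 in MM.1S, and 229 bp and a support of 4 in RPMI8226. All 5 RPMI8226 peaks of the window had an MM.1S partner, and 5 of 6 MM.1S peaks had an RPMI8226 partner. The 3 distal peaks reached 3, 4 and 5 of 9 libraries in MM.1S and 4, 4 and 5 of 5 in RPMI8226. A listed peak has a support of at least 3 in either line. The lowest possible share of libraries is therefore higher in RPMI8226, and these shares are not on the same scale. Both lists had a MYC-type E-box (CACGTG) in the distal peak that begins 21133 bp (MM.1S) or 21313 bp (RPMI8226) after the start. The MM.1S peak without a partner, chr13:91398357-91399071, was called in 9 of 9 libraries at the start of GPC5, which encodes the proteoglycan glypican 5.

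MIR22HG (chr17:1711447-1717174, minus strand) shares its promoter region with WDR81, a protein-coding gene on the other strand. A single MM.1S peak of 1652 bp with a support of 9 covered the start. In RPMI8226 the same stretch was divided into peaks of 845 and 579 bp, each with a support of 5, and a 138 bp peak with a support of 3 followed. All peaks of the window, 3 in MM.1S and 5 in RPMI8226, were promoter peaks. An AP-1 match lay in the central 200 bp of an upstream peak in both lines, called in every library, which lay 5893 bp from the start in MM.1S (296 bp wide) and 5862 bp in RPMI8226 (327 bp wide). MM.1S alone had a 912 bp peak in 9 of 9 libraries near WDR81 starts, chr17:1724387-1725298. RPMI8226 alone had a 636 bp peak in 5 of 5 libraries, chr17:1736406-1737041.

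DLEU2 (chr13:49956670-50125720, minus strand) and DLEU1 (chr13:50082169-50906856, plus strand) overlap head to head, so some peaks belong to both. The start of DLEU2 had the widest MM.1S peak of the 7 genes, chr13:50123769-50126242, with 2474 bp and a support of 9. It was wider than 99.9% of the MM.1S list. RPMI8226 had peaks of 1493 and 583 bp in this place, both in 5 of 5 libraries. The DLEU1 start was covered by 1864 bp in MM.1S and 521 bp in RPMI8226, again in every library, and this peak also lay within 2500 bp of an inner start site of DLEU2. All 7 MM.1S peaks in the DLEU2 window had an RPMI8226 partner, and 9 of 11 RPMI8226 peaks had an MM.1S partner.

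**Figure D2:**
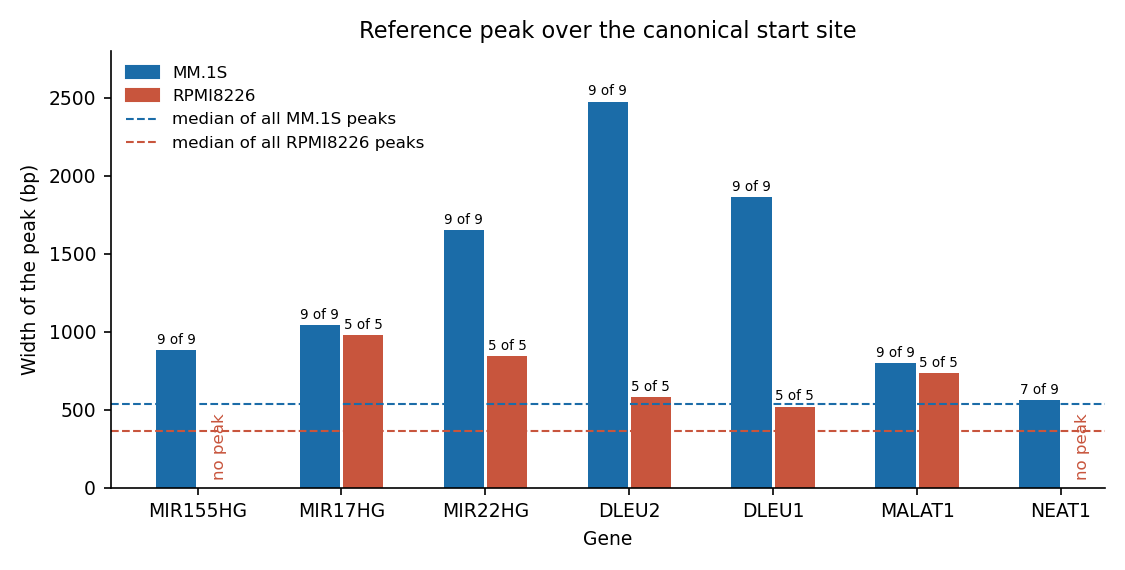
Width in bp of the reference peak over the canonical start site of each gene, with its support as libraries of all libraries of the line above the bar and dashed lines at the median width of each whole list (536 bp in MM.1S, 362 bp in RPMI8226). The bars of DLEU2, DLEU1 and MIR22HG are the highest in MM.1S, and MIR155HG and NEAT1 have no RPMI8226 peak.

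The DLEU1 window held 24 MM.1S and 48 RPMI8226 peaks, a larger gap than between the whole lists. Of the MM.1S peaks 22 had an RPMI8226 partner (91.7%, 95% Wilson interval 74.2 to 97.7%) and 2 had none, against 64.6% with a partner in the whole MM.1S list. Of the RPMI8226 peaks 27 had an MM.1S partner (56.2%, interval 42.3 to 69.3%), near the 62.0% of the whole RPMI8226 list. Of the 21 that had none, 11 were called in 5 of 5 libraries, and of the 27 with a partner 21 were. In the whole RPMI8226 list 64.1% of all peaks were, and 38020 of the 49545 with a partner were. Peaks with a partner were thus called in every library more often than all peaks, so 64.1% is the like share of neither group. Part of the gap came from division, since 5 MM.1S peaks overlapped at least 2 RPMI8226 peaks each and no RPMI8226 peak overlapped more than 1 MM.1S peak. The RPMI8226-only peaks were 5 promoter and 16 distal peaks with a median width of 335 bp. Only some of them lay in runs, and there were 2 runs of 5 consecutive peaks. The first, chr13:50400337-50428786, lay in a stretch of 124 kb without MM.1S peaks, and the second, chr13:50676458-50714145, in a stretch of 105 kb. In these runs 1 and 3 of the 5 peaks were called in every library. The widest RPMI8226-only peak, chr13:50798705-50799803, had 1099 bp and a support of 5 in an intron. The MM.1S-only peak in every library, chr13:50800890-50801724, had 835 bp and lay in the same part of the gene without touching it. Copy number at 13q14 was not measured here, and its part in the counts was not tested.

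MALAT1 (chr11:65497640-65508073, plus strand) was covered at both ends in both lines. Its start had peaks of 799 bp in MM.1S and 734 bp in RPMI8226, called in every library, and the RPMI8226 peak lay wholly within the MM.1S peak. The widest peak of the window covered the 3′ end, where the antisense RNA TALAM1 also starts. It spanned chr11:65506599-65508515 in MM.1S (1917 bp, support 9) and chr11:65506589-65508511 in RPMI8226 (1923 bp, support 5), with 1913 bp in common. The edges differed by 10 and 4 bp between the lines. In RPMI8226 4 of 10 peaks had no MM.1S partner, and 2 of these were called in every library, with 354 bp at chr11:65479347-65479700 and 1013 bp at chr11:65515879-65516891. In MM.1S 1 of 7 had no partner, with 373 bp and a support of 5.

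NEAT1 (chr11:65422774-65445540, plus strand) had the highest peak density of the 7 genes in MM.1S and a gap over its start in RPMI8226. In MM.1S the start was covered by a 561 bp peak with a support of 7, chr11:65422743-65423303, and a 293 bp peak with a support of 8 lay just upstream, chr11:65422156-65422448. The upstream peak held a CRE (TGACGTCA) and at least 1 GC box in its central 200 bp. A support of 7 or more in MM.1S requires at least 1 library of each culture condition. In RPMI8226 no peak lay in the 5.48 kb around the start, and the nearest peak, 1239 bp upstream at chr11:65421248-65421559, had a support of 5. The MM.1S list had 3 consecutive peaks within this gap. RPMI8226 therefore had a NEAT1 peak within 2500 bp of a start site, and none over the canonical start.

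Past the start, NEAT1 was accessible in both lines. A peak of 1457 bp with a support of 9 in MM.1S began 3494 bp after the start, and one of 1736 bp with a support of 5 in RPMI8226 began 4241 bp after it, with 710 bp in common. The 3′ end was covered by 2130 bp in MM.1S (support 8) and 1991 bp in RPMI8226 (support 5), and the RPMI8226 peak lay wholly within the MM.1S peak. Thus 2 of 7 genes, MALAT1 and NEAT1, had a peak over the 3′ end in each line, against 2.87% of lncRNA genes in MM.1S and 1.89% in RPMI8226. Of the 15 MM.1S peaks of NEAT1 4 were called in 9 of 9 libraries (26.7%, 95% Wilson interval 10.9 to 52.0%), against 52.0% of the MM.1S list. In RPMI8226, 9 of 12 were called in 5 of 5 (75.0%, interval 46.8 to 91.1%), against 64.1% of the RPMI8226 list. The numbers of libraries needed differ, so the shares of the lines are not on the same scale.

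**Figure D3:**
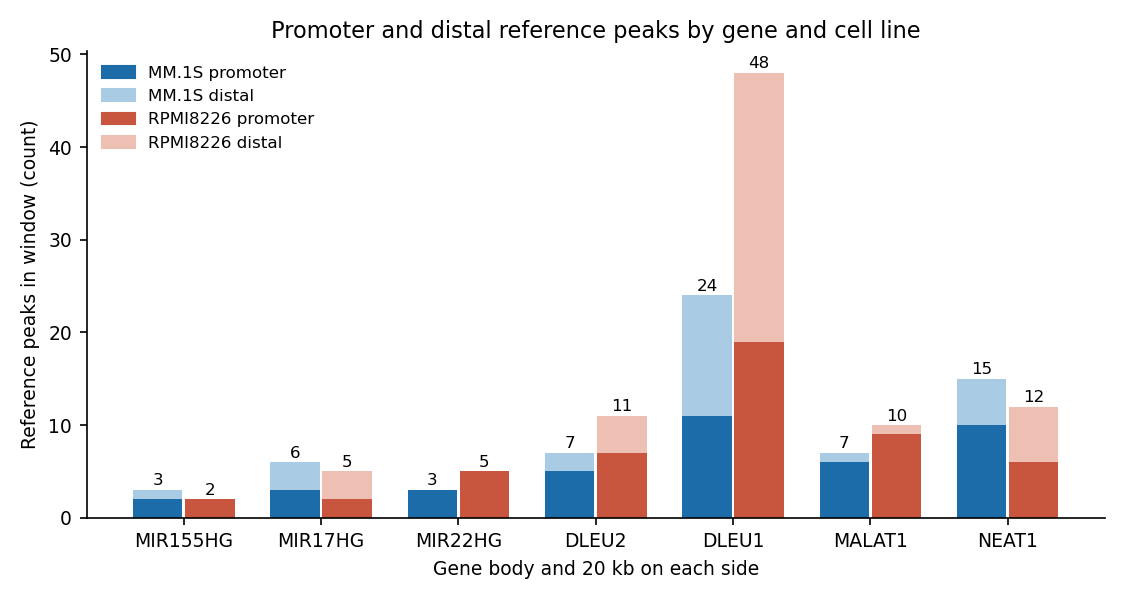
Number of reference peaks in the window of each gene, stacked as promoter (dark) and distal (light), for MM.1S and RPMI8226, with the total above each bar. The lines have 24 and 48 peaks at DLEU1, and they differ by at most 4 at every other gene.

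Over all 7 genes the lines had 62 and 85 peaks in 1292.4 kb, or 4.80 and 6.58 per 100 kb, against 2.36 and 2.59 over the whole genome. Ranked by peaks per 100 kb among the windows of all 18866 lncRNA genes, NEAT1 stood at percentile 99.9 in MM.1S and 99.0 in RPMI8226, and MALAT1 at 97.0 and 99.4. MIR22HG stood at 75.8 and 90.6, MIR17HG at 76.4 and 69.8, and MIR155HG at 72.5 and 53.8. DLEU1 stood at 51.5 and 69.8, and DLEU2 at 53.9 and 68.9. NEAT1 and MALAT1 were thus the densest of the 7 in both lines, and their order was not the same in both. Without DLEU1 and DLEU2 the windows held 34 peaks in each line, so the surplus of RPMI8226 lay in the 13q14 windows.

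Promoter peaks, within 2500 bp of any annotated start, made up 38 of 62 MM.1S peaks (61.3%, interval 48.8 to 72.4%) and 45 of 85 RPMI8226 peaks (52.9%, interval 42.4 to 63.2%), against 39.2% and 36.0% of the lists. Many of these starts belong to small or noncoding RNAs inside the windows. With starts of protein-coding genes and the 7 genes alone, the shares were 38.7% and 30.6%, against 25.3% and 23.2% of the lists. Peaks called in every library numbered 34 (54.8%, interval 42.5 to 66.6%) and 58 (68.2%, interval 57.7 to 77.2%), near the shares of the lists, 52.0% and 64.1%.

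Shared peaks, which overlapped a peak of the other line by at least 1 bp, numbered 51 of 62 in MM.1S (82.3%, interval 71.0 to 89.8%) and 55 of 85 in RPMI8226 (64.7%, interval 54.1 to 74.0%). In the whole lists these shares were 64.6% and 62.0%. Without DLEU1 and DLEU2 the share was 73.5% in both lines. Sharing stood further above the list in distal MM.1S peaks, of which 21 of 24 were shared (87.5%, interval 69.0 to 95.7%), against 60.0% of the 44290 distal peaks of the MM.1S list. Promoter peaks of MM.1S were shared in 30 of 38 cases (78.9%, interval 63.7 to 88.9%), against 71.8%. In RPMI8226, 22 of 40 distal peaks were shared (55.0%, interval 39.8 to 69.3%), against 53.7% of the list, and 33 of 45 promoter peaks (73.3%, interval 59.0 to 84.0%), against 76.6%. Of the 11 MM.1S-only peaks 4 were called in 9 of 9 libraries, and of the 30 RPMI8226-only peaks 15 were called in 5 of 5. These are the peaks not shared among the 34 MM.1S and 58 RPMI8226 window peaks called in every library. Among window peaks called in every library, 88.2% were shared in MM.1S and 74.1% in RPMI8226. For such peaks of the whole lists the shares were 81.3% and 74.1%. The intervals cover counting error only, and neighbouring peaks are not independent.

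**Figure D4:**
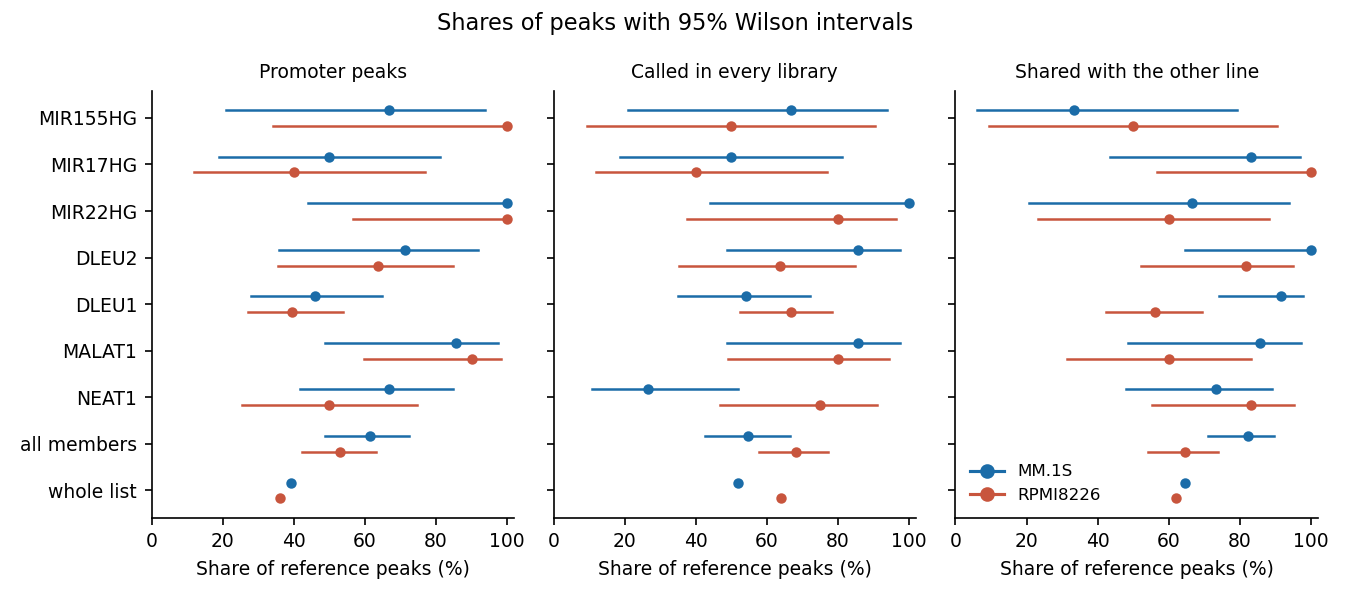
Share in % of reference peaks that are promoter peaks, that were called in every library and that are shared with the other line, for each gene, for all 7 genes (all members) and for the whole list; points are shares and lines are 95% Wilson intervals. The intervals of single genes are wide, and for the 7 genes together MM.1S has 82.3% shared peaks and RPMI8226 64.7%.

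Motifs were counted in the central 200 bp of the peaks. GC boxes (GGGCGG) were in 18 of 62 MM.1S peaks (29.0%) and 17 of 85 RPMI8226 peaks (20.0%), against 17.9% and 15.0% of all peaks. E-boxes were in 5 (8.06%) and 6 (7.06%), against 4.09% and 3.71%. AP-1 matches were in 7 (11.3%) and 9 (10.6%), against 7.42% and 14.2%. STAT matches (TTCCNGGAA) were in 0 of either, against 0.592% and 0.633%, a count that covers this central window alone. Over whole peaks a STAT match lay in 1 peak of each list, in the same place upstream of NEAT1 (chr11:65417715-65419394 in MM.1S and chr11:65417869-65419378 in RPMI8226). ATF::CEBP matches (TGATGNAA) were in 4 peaks of each line (6.45% and 4.71%), against 3.05% and 3.42%. ISRE matches were in 5 (8.06%) and 8 (9.41%), against 6.84% and 6.27%. NF-kB matches were in 6 of each (9.68% and 7.06%), against 7.29% and 7.83%. ETS matches (CCGGAA) were in 4 of each (6.45% and 4.71%), against 6.05% and 5.69%, and CTCF matches in 3 of each (4.84% and 3.53%), against 6.17% and 5.23%. CRE matches were in 1 of each (1.61% and 1.18%), against 0.451% and 0.455%. None of these differences was tested. Promoter peaks were a larger part of the window peaks than of the lists, as given above, and motif counts were not split by class. Both strands were searched, and matches of different motifs can share bases.

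The genes that process and load microRNAs were accessible at their promoters in both lines. MM.1S had a promoter peak at 12 of 12 such genes and RPMI8226 at 11, and AGO4, an Argonaute gene, was the exception. All 10 genes of paraspeckle proteins, which assemble on NEAT1, had one in both lines. Of 8 neighbouring genes in 13q14, 7 had one in each line, with KCNRG the exception in both. Of 80 other microRNA host genes, all of them lncRNA genes, 51 had one in MM.1S (63.8%) and 53 in RPMI8226 (66.2%), 44 of them in both. The shares among all lncRNA genes were 38.9% and 37.2%. For all protein-coding genes the shares were 76.8% and 71.8%.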

How the data were processed

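Omni-ATAC libraries of MM.1S and RPMI8226 were grouped by the sample titles. The authors aligned paired-end reads to hg38 with Bowtie2, excluded reads with several positions, kept 1 read for each position, called peaks with MACS3 and kept those present in at least 3 samples. Tool versions, thresholds and the joining of peak edges are not given in the sources used here. The deposited lists hold the position of each peak and a number without a header, in a unit other than reads, which was read as the count of libraries with the peak. Starts were read as 0-based and printed 1-based, which the files do not state. The lists give no depth per sample. The supplement of the study gives read totals, which differ between libraries and were not used as data here, so the support was not adjusted for depth. The tests planned for read counts were not run.

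Genes and start sites came from GENCODE 44 and sequences from hg38 and RefSeq. The members, lists and motifs were chosen with earlier results of these data known. Windows had flanks of 20 kb, promoters reached 2500 bp on either side of a start, sharing needed 1 bp, and motifs were sought in the central 200 bp. Named peaks were those over a gene's start sites, the widest per list, and those of 1 list called in every library, and others were named after their values were seen. Intervals are 95% Wilson intervals. Other flanks, promoter windows, overlaps, widths and supports were tried, and leaving out 2 windows and using canonical starts alone were added after seeing the data. Python 3.11.15, pysam 0.24.0, samtools 1.23.1 and matplotlib 3.10.9 were used, and overlaps and motif searches were tested on simulated data.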

Additional observations from a re-analysis of the deposited data

How the results depend on the processing

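Of 64 values recomputed under alternatives, 45 stayed within the counting interval of the original value or within 1.5 times the original count, and 19 moved. The number of peaks was 38 in MM.1S and 49 in RPMI8226 for peaks at least as wide as the list median, 34 in MM.1S for peaks called in every library, and 34 in each line without DLEU1 and DLEU2. Among wide peaks, 71.1% and 85.7% were called in every library, against 78.6% and 86.1% of the wide peaks of the whole lists. With a reciprocal overlap of 50%, MM.1S sharing was 66.1% and RPMI8226 sharing 47.1%, against 51.8% and 47.2% of the lists. Where the partner had to be called in every library, the values were 67.7% and 41.2%, against 50.5% and 41.4%. Sharing was 74.1% among RPMI8226 peaks called in every library, and it was 74.1% for such peaks of the whole list. The promoter share was 46.8% and 36.5% with a window of 1000 bp (30.8% and 27.4% of the lists), 74.2% in MM.1S with 5000 bp (49.3%), 73.5% in MM.1S among peaks called in every library (50.8%), and 38.7% and 30.6% with starts of protein-coding genes and the 7 genes (25.3% and 23.2%). It was 70.6% in RPMI8226 without DLEU1 and DLEU2.

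The number of genes with a peak at a start of their own was 7 in MM.1S under every setting run. In RPMI8226 it was 6, or 5 at the canonical start or within 1000 bp. No paired analysis was possible because each line has a single pooled list without values for single libraries. For the same reason no library was left out in turn, and the part of unequal depth between libraries in the support numbers was not tested.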
